A study of Mus musculus with 768 samples.

Results

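Matrix CAF-like cells with at least 1 read of *Mme* were compared with matrix CAF-like cells that had none. CAFs are cancer-associated fibroblasts, the connective tissue cells of a tumor. The data are single-cell transcriptomes of 768 wells, with the same number from each of 2 mammary tumors. The host strain was FVB/N-Tg(MMTVPyVT)634Mul/J, sampled at 14 weeks of age, in which the mouse mammary tumor virus promoter drives the polyoma virus middle T oncogene in the mammary epithelium. Cells had been sorted as negative for EpCAM, CD45, CD31 and NG2 and for a dead-cell dye, with no positive marker, and each tumor came from 1 mouse and filled 1 plate. All cells share this genotype, age and sort, no other treatment is given, and tumor and plate cannot be told apart. The tumor is therefore the replicate (n = 2 tumors) and a cell is not.

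A well entered with at least 10000 endogenous reads and 1000 genes, which 717 of 768 wells reached. Cells were then chosen by a pair of scores. M is the mean log2(RPKM + 1) of *Dcn*, *Lum*, *Mfap5*, *Olfml3*, *Smoc2* and *Serpinf1*, genes of the fibroblast matrix. V is the same mean of *Rgs5*, *Higd1b*, *Kcnj8*, *Rgs4*, *Abcc9* and *Gja4*, genes of mural cells around vessels. A cell with an M of at least 4 that exceeded its V was called mCAF-like, which gave 96 cells in tumor 1 and 90 in tumor 2. Of these, 71 had an *Mme* read (33 in tumor 1 and 38 in tumor 2) and the other 63 and 52 had none. The 3 cells just inside the limit on M had values of 4.07, 4.07 and 4.14, and the 3 just outside had 3.95, 3.72 and 3.54. No pair of these wells held identical counts (0 duplicates).

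*Mme* encodes neprilysin, also known as CD10 or CALLA, a zinc metallopeptidase anchored in the cell membrane with its active site outside the cell. It cleaves short peptides such as substance P, bradykinin, endothelins, natriuretic peptides, enkephalins and amyloid beta, and so limits how long they signal. In the mammary gland CD10 is best known as a surface marker of myoepithelial cells, and it also occurs on subsets of stromal fibroblasts. A CD10-positive fibroblast population that also carries the complement receptor GPR77 (*C5ar2*) has been described in human breast cancer.

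The gene lies on chromosome 3 at 63295211 to 63383713, plus strand, in GRCm38.p6, the assembly of mm10, and RefSeq lists 3 starts for it. The 250 bases before the first start (chr3:63294961-63295210, plus strand, RefSeq) are shown because this is the gene that divides the cells. Capitals mark the match to the GC box, GGGCGG, searched on both strands.
*Mme* upstream: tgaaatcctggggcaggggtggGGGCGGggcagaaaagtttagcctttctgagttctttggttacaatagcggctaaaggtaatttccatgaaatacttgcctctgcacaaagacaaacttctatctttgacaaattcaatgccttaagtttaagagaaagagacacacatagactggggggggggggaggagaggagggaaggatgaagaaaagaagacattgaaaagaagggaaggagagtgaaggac
There was 1 match, near the upstream end of the window, and 32.7% of 32851 such windows of all genes held one. Neither CCAAT, present in 33.8% of the windows, nor TATAAA, present in 12.4%, was in this window on either strand. G and C made up 45.6% of the window, against a median of 52.4% over all windows.

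*Mme* was read far more often in mCAF-like than in vascular CAF-like (vCAF-like) cells of both tumors. It was found in 34.4% of the mCAF-like cells of tumor 1 (33 of 96, exact binomial 95% interval 25.0 to 44.8%) and in 42.2% of those of tumor 2 (38 of 90, 31.9 to 53.1%), 38.3% ± 5.55 (SD, n = 2 tumors). The vCAF-like cells, with a V of at least 4 that exceeded M, are the larger group of mesenchymal cells in these tumors and serve as the background. There it was read in 3.83% (10 cells, 1.85 to 6.93%) and 1.28% (3 cells, 0.264 to 3.69%), out of 496 cells in all, so the intervals of the classes did not overlap within a tumor. These intervals cover counting error over cells only, and the cells of 1 tumor are not replicates. Median depth was somewhat higher in mCAF-like cells, at 262024 and 232394 reads against 202729 and 191893 in vCAF-like cells. With every cell thinned to 40000 reads, the shares were 32.3% and 37.2% in mCAF-like cells and 0% and 0.881% in vCAF-like cells, where the exact upper limit for the count of 0 was 1.44%. The remaining 35 cells, which met neither rule, are given in the closing section.

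Levels within the Mme-positive cells covered a wide range. In tumor 1 they ran from 1 read to 1454 reads with a median of 45, and in RPKM from 0.547 through a median of 28.7 to 635. In tumor 2 they ran from 1 read with a median of 37, and from 0.551 through 25.9 to 153.4 RPKM. A single cell held 40.1% of the *Mme* reads of tumor 1. The highest cell of tumor 2 held 10.5%. Most positive cells were not marginal, since 25 of 33 and 28 of 38 reached 10 RPKM, while 4 and 5 had under 5 reads.

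**Figure D1:**
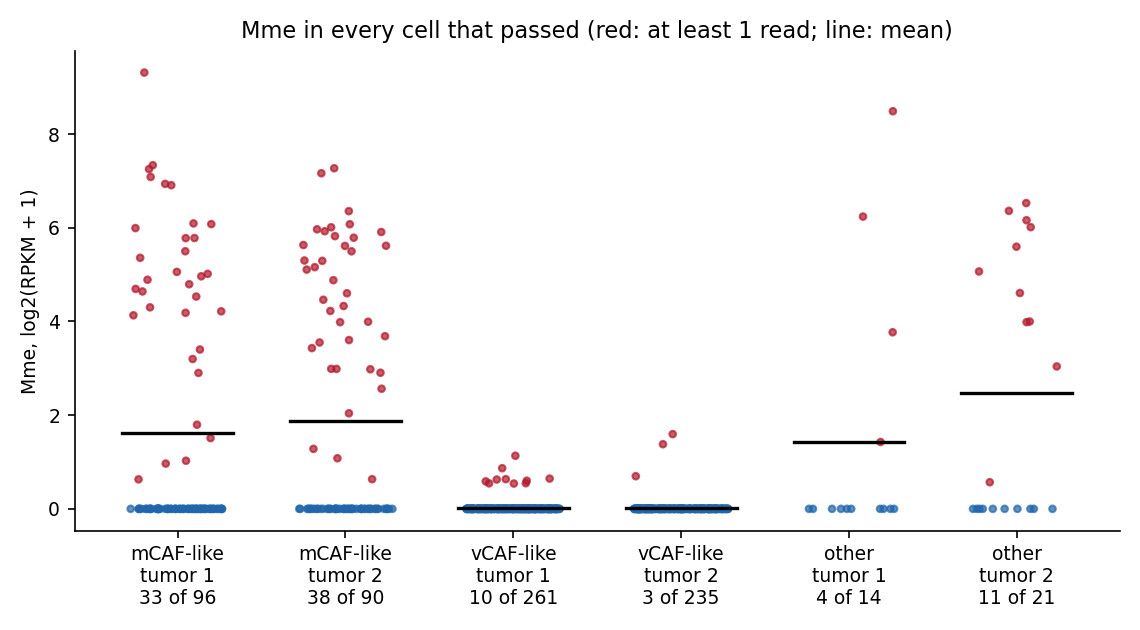
*Mme* in log2(RPKM + 1) on the vertical axis for each of the 717 cells, by class and tumor, with cells that have a read in red, cells at 0 in blue, the mean as a line and the number of cells with a read below. Most positive mCAF-like cells of both tumors lie well above the few positive vCAF-like cells, which stay under 2.

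The Mme-positive cells were somewhat deeper in both tumors. Their median was 289033 reads against 238467 in the Mme-negative cells of tumor 1, and 248615 against 209416 in tumor 2. The median number of genes was 5713 in the positive cells of each tumor, against 5286 and 5375.5. ERCC spike-ins, RNA added in equal amount to each well, took a median of 6.31% of reads in positive and 7.11% in negative cells of tumor 1, and 5.52% and 7.01% in tumor 2. The ranges overlapped widely, from 43553 to 539238 reads against 25703 to 493466 in tumor 1 and from 24005 to 436495 against 14602 to 498291 in tumor 2. A shallow cell shows a gene less often, so thinned values are given beside the results.

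Vascular genes did not spread evenly over the groups. The median M, which the rule itself set high, was 10.5 in positive and 10.1 in negative cells of tumor 1, and 10.1 and 9.17 in tumor 2. The median V was 0.832 against 1.16 and 0.893 against 1.16. A V of at least 2 was found in 0 of 33 and 1 of 38 Mme-positive cells, and in 18 of 63 (28.6%) and 15 of 52 (28.8%) Mme-negative cells. The highest V was 1.58 and 2.58 in positive cells and 7.87 and 7.88 in negative cells. The 34 cells with a V of at least 2 were shallower, with a median of 197170 reads against 266032 in the others. They also had a lower M, with a median of 8.02 against 10.1.

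**Figure D2:**
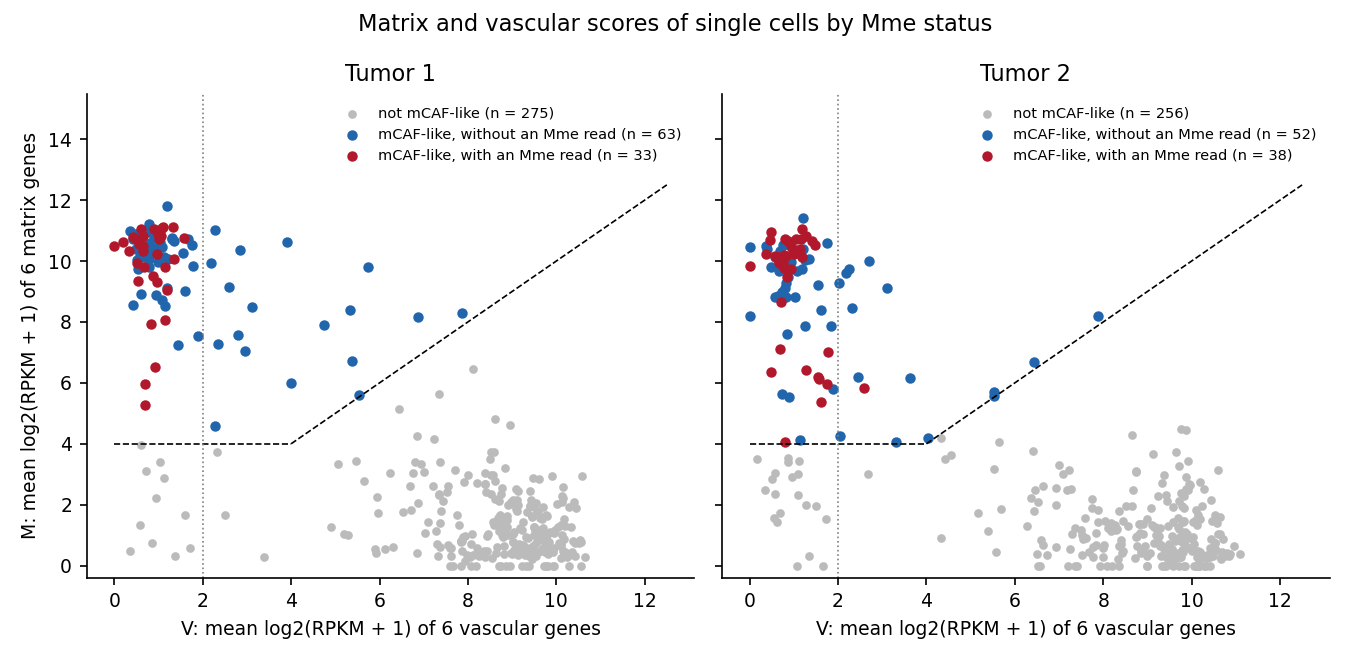
Each cell by V (horizontal) and M (vertical), both means of log2(RPKM + 1), with Mme-positive mCAF-like cells in red, Mme-negative ones in blue and all other cells in grey. Dashed lines bound the mCAF-like cells and the dotted line marks a V of 2, which 1 of the 71 red cells and 33 of the blue cells reached.

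The genes of the scores chose the cells and are given as a description. *Dcn*, the proteoglycan decorin, had 4728 and 4097 counts scaled to a common library total (CPM) in the summed positive cells of tumors 1 and 2 and 4579 and 3028 in the negative cells. *Lum*, lumican, had 3877 and 2718 against 3186 and 1925. *Mfap5*, a microfibril protein, was the one of the 6 matrix genes that was lower in positive cells, at 1393 and 1472 CPM against 2558 and 2177. *Rgs5*, a mural G-protein regulator, had 11.9 and 11.3 CPM against 314.3 and 143.3. It was nevertheless read in 29 of 33 and 33 of 38 positive cells, so low *Rgs5* counts were present in most cells. Whether such low counts, or a single *Mme* read, came from the cell itself or from RNA or reads of other wells was not tested. Without the cells with high vascular, developmental or cycling scores, named scored cells and defined next, the log2 difference of *Rgs5* went from -4.19 to -0.18. Since *Rgs5* is itself a gene of V, this change follows from leaving out cells with a high V.

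Other scores were added after the values had been seen. A developmental score D, the mean of *Scrg1*, *Sox9*, *Sox10*, *Mia* and *Matn4*, reached 2.4 in 2 Mme-positive cells of tumor 1 and in 1 Mme-negative cell of tumor 2. At a limit of 2 it took in 2 more cells, both Mme-positive and of tumor 2. A cycling score, the mean of *Top2a*, *Birc5*, *Cdk1*, *Ccnb1*, *Cenpf* and *Mki67*, reached 2 in 3 Mme-negative cells of each tumor and in 0 positive cells. The scored cells are those with a V or cycling score of at least 2 or a D of at least 2.4. These limits were set with results known, and since the calls depend on the limit on D, values at a limit of 2 are given beside them.

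Counts were summed per tumor and status into 4 libraries, of 9430043 and 9650657 reads for Mme-positive cells and 15292502 and 11243462 for Mme-negative cells. They were tested with edgeR's quasi-likelihood test with the tumor as a block. Of 11395 genes tested beside *Mme* and the score genes, 3 rose in Mme-positive cells (0.0263% of the genes) and 2 fell (0.0176%) at a Benjamini-Hochberg adjusted p of 0.05. The genes that rose were *Smoc1*, *Trf* and *Wif1*, and those that fell were *Sfrp4* and *Tnxb*. The adjustment ran over all fitted genes, with *Mme* and the score genes among them. *Mme*, whose difference the rule set, had the smallest p (edgeR adjusted p 0.0282), which lowers the adjusted p of genes ranked after it. The 5 edgeR calls, with adjusted p of 0.0325 to 0.0439, depend on *Mme* being included. DESeq2 on the same libraries called 0.799% higher and 1.09% lower, among them 4 of these 5 but not *Wif1* (adjusted p 0.33003). At an unadjusted p of 0.05 in edgeR, 3.2% of the genes were higher and 3.7% (422 genes) lower. Scaling to ERCC totals moved the median of all genes to 0.32 and called 1 gene higher and 0 lower, with 9.20% and 1.82% at an unadjusted p of 0.05, so levels are relative to the other genes of a library.

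*Smoc1*, a secreted calcium-binding matrix protein (chromosome 12, 81026808 to 81186414), had 17.7 and 174.1 CPM in the positive cells of tumors 1 and 2 and 0 and 0.262 in the negative cells. Reads fell in 3 of 33 and 10 of 38 positive cells, and in 0 of 63 and 3 of 52 negative cells. Over both tumors there were 1824 reads against 3, a ratio of 846 with a counting interval of 288.9 to 4104. Such an interval, here and below, treats reads as independent and covers neither the spread over cells nor that between tumors. In tumor 1 a single cell, with the highest D of 6.42, held 78.5% of the library's *Smoc1* reads. The adjusted p was 0.0325 by edgeR, and the gene was named after its values were seen.

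*Wif1*, an inhibitor that binds Wnt ligands (chromosome 10, 121034004 to 121100642), had 228.4 and 3.15 CPM in positive cells and no read in negative cells. With 2133 reads against 0, and a floor of 3 counts over the group, it was at least 989-fold higher (edgeR adjusted p 0.0439). This rests on tumor 1, with 2103 of the reads, and the 30 reads of tumor 2 alone gave at least 11.7-fold. Only 3 and 2 cells held these reads, and the same cell of tumor 1 held 91.7% of that library's *Wif1* reads. *Trf*, transferrin, the iron carrier of plasma and milk (chromosome 9, 103208876 to 103230286), had 354.3 and 300.3 CPM against 33.8 and 34.99, a log2 fold change of 3.25 ± 0.23 (SE, edgeR adjusted p 0.0433). Cells with a read were 12 of 33 and 25 of 38 positive and 25 of 63 and 23 of 52 negative cells. The same cell of tumor 1 held 76.2% of that library's *Trf* reads, and without the cells scored above the log2 difference was 1.17.

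*Sfrp4*, a secreted Wnt antagonist (chromosome 13, 19623175 to 19632825), had 0.109 and 0 CPM in positive cells against 56.1 and 81.3. The 1791 reads in negative cells came from 4 cells of each tumor, of which the highest held 66.7% and 72.1%, and the positive cells held 1 read, a ratio of 1288 with a counting interval of 230.8 to 50894 (edgeR adjusted p 0.0433). *Tnxb*, tenascin X, a large matrix glycoprotein of loose connective tissue (chromosome 17, 34660453 to 34719815), had 3.48 and 3.04 CPM against 87.96 and 130.001, a log2 fold change of -5.03 ± 0.38 (SE, edgeR adjusted p 0.0433). Only 3 of 33 and 4 of 38 positive and 8 of 63 and 5 of 52 negative cells had a read, and a single negative cell of each tumor held 41.9% and 65.97% of its library's *Tnxb* reads. The libraries did not overlap for any of these 5 genes. Since the genes were chosen by small p on the same libraries, this separation supports nothing. The share of all genes with such separation was not computed. All 5 lost the threshold without the cells with a V of at least 2, and likewise without the 3 cells with a D of at least 2.4. The log2 differences of *Smoc1* and *Sfrp4* stayed nearly as large, at 8.68 and -9.24 without the former and 9.25 and -10.01 without the latter, against 9.46 and -10.04. That of *Tnxb* went from -5.03 to -3.21 and -5.02, that of *Wif1* from 13.53 to 13.37 and 10.08, and that of *Trf* from 3.25 to 2.79 and 1.73. The fitted differences of *Smoc1*, *Sfrp4* and *Wif1*, near 0 reads in one group, depend on the prior count and are no bounds. Without the 5 cells with a D of at least 2, *Smoc1*, *Sfrp4* and *Tnxb* passed (edgeR adjusted p 0.0140, 0.0149 and 0.0157), while *Trf* and *Wif1* did not (0.669 and 0.235).

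Sums weigh a cell by its reads, so a second view gave each cell the same weight and depth. Every mCAF-like cell was thinned to 40000 reads, which left 33 and 37 positive and 60 and 49 negative cells, and the mean log2(reads + 1) of each library was tested with limma with the tumor as a block. This view was added after the values had been seen. It called 79 genes higher in Mme-positive cells (0.696% of 11357) and 47 lower (0.414%). Without the scored cells it called 2 genes higher (0.0177% of 11316) and 3 lower (0.0265%), all of which were among the former. With the limit on D at 2, which left out 2 more Mme-positive cells of tumor 2, it called 21 higher (0.186% of 11310) and 12 lower (0.106%). The smaller counts therefore rest on where that limit lies, while the 5 genes were called at both limits. These 5 were *Sfrp2* and *Tnfrsf21*, higher, and *Col8a1*, *Gpx3* and *Megf11*, lower. *Sfrp2*, *Gpx3* and *Megf11* were named after their values were seen.

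*Sfrp2*, a secreted Frizzled-related Wnt modulator of fibroblasts (chromosome 3, 83765750 to 83774314), was read in 29 of 33 and 32 of 38 Mme-positive cells against 40 of 63 and 21 of 52 negative cells. The summed libraries had 1157 and 795 CPM against 331.4 and 127.6. A single positive cell of tumor 2 held 70.5% of that library's *Sfrp2* reads, and without the highest cell of each library the edgeR log2 difference was 1.49. The edgeR log2 fold change was 2.22 ± 0.25 (SE) with an adjusted p of 0.0850, so the gene did not pass there. On thinned reads the difference was 1.40 (limma adjusted p 1.02e-06), and 1.51 without the scored cells (limma adjusted p 0.00403).

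*Tnfrsf21*, death receptor 6 of the TNF receptor family (chromosome 17, 43016555 to 43089188), had 693 and 663 CPM against 370.9 and 282.8. Most cells had a read, 32 of 33 and 34 of 38 positive and 57 of 63 and 41 of 52 negative cells. The edgeR log2 fold change was 1.07 ± 0.18 (SE, adjusted p 0.221). On thinned reads it was 1.41, and 1.57 without the scored cells (limma adjusted p 0.00403).

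*Col8a1*, a short-chain collagen of vessel walls and provisional matrix (chromosome 16, 57624256 to 57754737), had 537 and 626 CPM in positive cells against 1388 and 1529. Cells with a read were 23 of 33 and 22 of 38 positive and 51 of 63 and 44 of 52 negative cells. The edgeR log2 fold change was -1.33 ± 0.15 (SE, adjusted p 0.0850). The thinned differences were -1.67 with all cells and -1.54 without the scored cells (limma adjusted p 0.00403).

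*Megf11*, a transmembrane protein with EGF-like repeats (chromosome 9, 64385617 to 64714179), was read in 8 of 33 and 8 of 38 positive cells against 28 of 63 and 21 of 52. Its libraries had 38.2 and 46.97 CPM against 102.3 and 115.9, and the thinned difference without the scored cells was -1.08 (limma adjusted p 0.0384). *Gpx3*, a secreted glutathione peroxidase (chromosome 11, 54902854 to 54910387), differed between the views. The summed libraries hardly separated, at 1268 and 814 CPM against 1324 and 996 (edgeR log2 fold change -0.18 ± 0.15 SE, adjusted p 0.917), and without the scored cells the sign turned (0.036, or 0.065 with the limit on D at 2). The mean thinned log level was lower by -1.43, and by -1.29 without the scored cells (limma adjusted p 0.0419). The latter call depends on *Mme* being part of the adjustment.

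**Figure D3:**
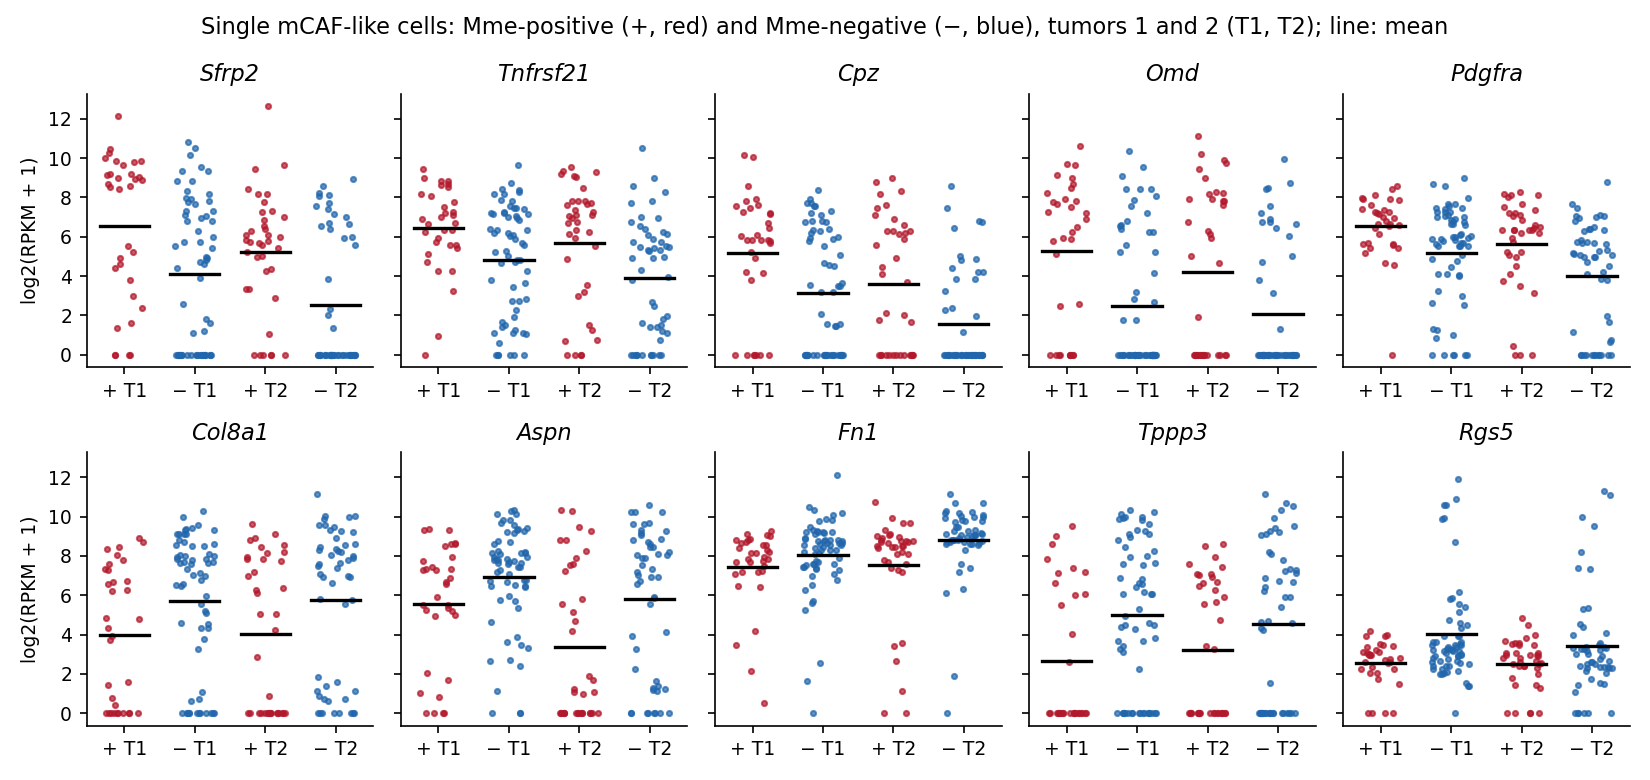
log2(RPKM + 1) of 10 genes in each mCAF-like cell, by Mme status (+ red, − blue) and tumor (T1, T2), with the mean as a line. For *Sfrp2* the means are 6.55 and 5.22 in positive and 4.09 and 2.54 in negative cells, for *Col8a1* 3.96 and 4.002 against 5.73 and 5.74, and the single cells of all groups overlap.

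Widely read genes did not pass in edgeR on the summed libraries, although DESeq2 called all 23 given here. Since these were chosen on the same libraries by small p and equal sign, the DESeq2 calls support nothing. The genes below had a read in no fewer than 20% of the higher group's cells in either tumor, had no single cell with more than 50% of that group's reads, had the same sign in both tumors and had the smallest p. The 12 with higher levels in Mme-positive cells had edgeR adjusted p of 0.142 to 0.286. *Cpz*, a carboxypeptidase with a Frizzled-like domain that binds Wnt ligands, had 372.01 and 151.8 CPM against 123.9 and 33.8. *Omd*, osteomodulin, a small leucine-rich proteoglycan, had 402 and 361.3 against 151.77 and 96.4. *Omd* was read in 24 of 33 and 21 of 38 positive cells and in 25 of 63 and 17 of 52 negative cells.

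*Fmo1*, a flavin monooxygenase, had 332.6 and 231.9 CPM against 136.4 and 94.2. *Hsd11b1*, which reactivates glucocorticoids inside the cell, had 761 and 382.3 against 391 and 177.6, so that its libraries overlapped between the tumors. *Crabp1*, a cytosolic retinoic acid-binding protein, was the most abundant of the 12, at 2255 and 1527 CPM against 1320.2 and 819. *Lamc3*, a laminin chain, was read in 10 of 33 and 17 of 38 positive cells but in 6 of 63 and 5 of 52 negative cells. The other 6 were *Ociad2*, *Tnfrsf21*, *Itm2a*, *Col26a1*, *Pla1a* and *Ltbp1*, with log2 fold changes of 0.89 to 1.45. Of the 12, *Col26a1*, *Pla1a* and *Ltbp1* did not pass on thinned reads either (limma adjusted p 0.238, 0.218 and 0.194). Without the scored cells *Tnfrsf21* alone of the 12 passed on thinned reads, and with the limit on D at 2 *Cpz*, *Omd*, *Fmo1*, *Crabp1* and *Ltbp1* passed as well (limma adjusted p 0.00492, 0.00550, 0.00134, 0.00502 and 0.0430).

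*Pdgfra*, the receptor that marks matrix fibroblasts in these tumors, had 925 and 774 CPM against 659 and 340.01, a log2 fold change of 0.84 ± 0.22 (SE, edgeR adjusted p 0.488). It was read in 32 of 33 and 35 of 38 positive and in 57 of 63 and 40 of 52 negative cells, and passed on thinned reads (1.06, limma adjusted p 0.00160) but not without the scored cells (0.97, limma adjusted p 0.232), and again with the limit on D at 2 (1.01, limma adjusted p 0.0472).

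The 11 described with lower levels in Mme-positive cells had edgeR adjusted p of 0.0641 to 0.219. *Thbs4*, a thrombospondin of tendon and stroma, had 112.5 and 126.96 CPM against 489 and 460.1. In tumor 2 it was nevertheless read in more positive than negative cells, 14 of 38 against 12 of 52, with a mean log2(RPKM + 1) of 1.82 against 1.58, and on thinned reads it did not pass (limma adjusted p 0.589). *Cd34*, a surface sialomucin of adventitial fibroblasts and endothelium, had 26.7 and 69.8 against 184.3 and 334.9. *Tppp3*, a tubulin-binding protein, had 74.9 and 83.3 against 299.1 and 301.4 and was read in 13 of 33 and 19 of 38 positive but 45 of 63 and 32 of 52 negative cells.

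Of the 11, *Mcam*, *Ndufa4l2* and *Cspg4* are in the list of vascular CAF and pericyte markers. *Aoc3*, an amine oxidase of smooth muscle and fat, had 0.760 and 5.03 CPM against 16.3 and 77.1. *Mcam* (CD146) had 81.6 and 32.4 against 303.3 and 312.5. *Ndufa4l2* had 8.25 and 7.23 against 41.9 and 61.4. *Cspg4*, which encodes the NG2 that was sorted against, had 45.2 and 58.5 against 112.1 and 241.9 and was read in 23 of 33, 31 of 38, 48 of 63 and 39 of 52 cells.

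Without the scored cells the log2 differences went from -2.58 to -2.18 for *Mcam*, from -2.71 to -1.06 for *Ndufa4l2*, from -4.13 to -2.24 for *Aoc3* and from -1.68 to -1.59 for *Cspg4*. The others were *Col8a1*, *Errfi1*, *Tns1* and *Lrrn4cl*. On thinned reads *Thbs4*, *Cd34* and *Lrrn4cl* did not pass (limma adjusted p 0.589, 0.270 and 0.306), and without the scored cells *Col8a1* alone of the 11 passed, although the thinned differences of *Tppp3*, *Cspg4* and *Mcam* moved little (-1.03 to -0.98, -0.99 to -1.05 and -1.17 to -0.93). With the limit on D at 2, *Tppp3*, *Mcam* and *Cspg4* passed as well (limma adjusted p 0.0292, 0.0158 and 0.00752).

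**Figure D4:**
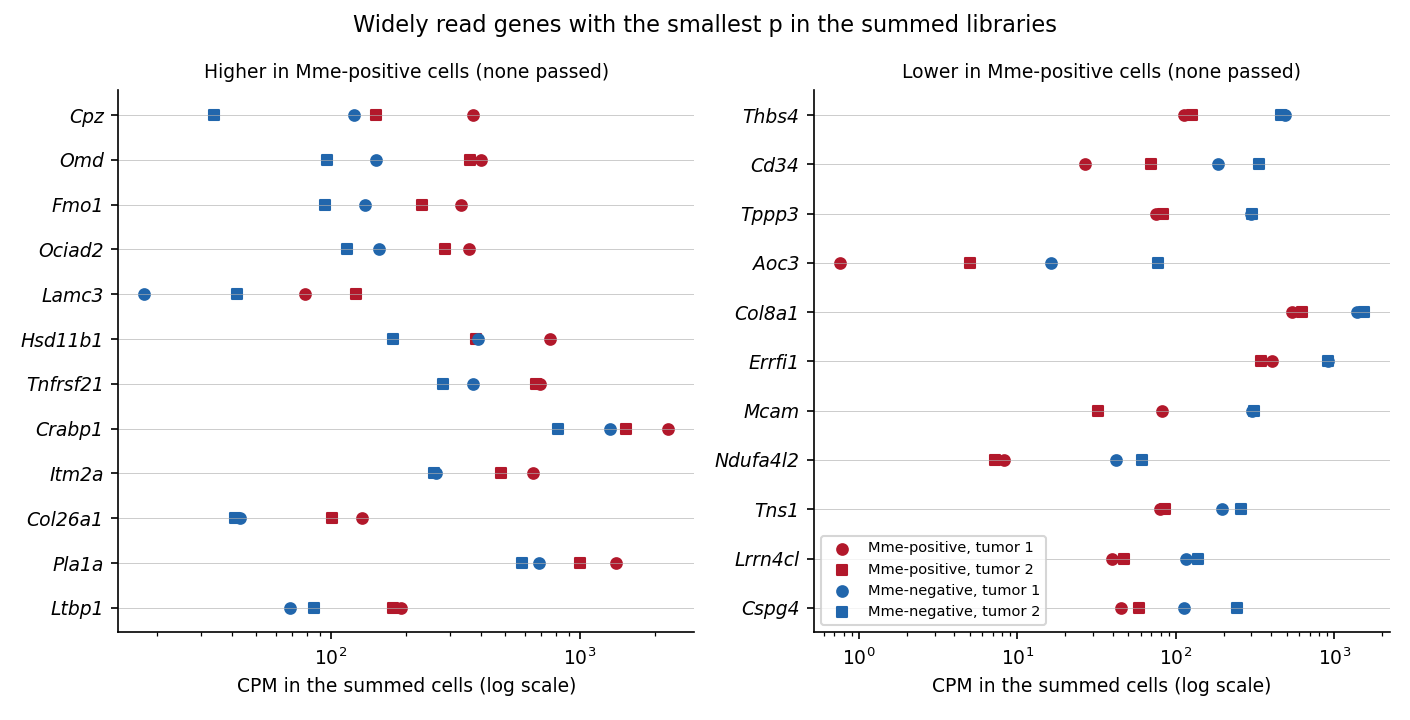
CPM on a log axis of widely read genes with the smallest p, 12 higher (left) and 11 lower (right) in Mme-positive cells, with Mme-positive libraries in red, Mme-negative ones in blue, tumor 1 as circles and tumor 2 as squares. None passed in edgeR on the summed libraries, and the genes were chosen for the same sign in both tumors, so the side on which the red points lie follows from the choice.

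Gene lists were read against all genes tested, whose median log2 fold change was -0.01. Of the family of *Mme*, the M13 metallopeptidases, *Ece1* and *Ece2*, which process endothelin precursors, were the 2 measured well enough to test. Neither passed in edgeR, DESeq2 or limma, and their sign changed with the setting. In edgeR 0 of 2 had an unadjusted p under 0.05. Of 11 tested genes for neprilysin substrates and their receptors, 0 passed in edgeR, 0 were higher and 1 lower at an unadjusted p of 0.05, and DESeq2 and limma called 0. Of 23 other peptidases of the cell surface or outside the cell, 0 passed in edgeR while 4 were higher and 3 lower at an unadjusted p of 0.05, and DESeq2 called 3 higher and 1 lower. Limma called 2 of them higher on thinned reads, *Cpz* and *Cpxm1*. *Cpxm1*, a carboxypeptidase-like protein, had 1328 and 1639 CPM against 794 and 608, and its relative *Cpxm2* had 1904 and 1163 against 1323 and 686 (edgeR adjusted p 0.308 and 0.431).

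Wnt genes, which comprise ligands, secreted antagonists and receptors, had a median of 0.40 over 24 tested, 0.49 and 0.41 in tumors 1 and 2 taken alone. Of these, *Wif1* rose and *Sfrp4* fell in edgeR, and 8 were higher and 1 lower at an unadjusted p of 0.05. DESeq2 called 3 higher and 1 lower. On thinned reads limma called 3 higher and 1 lower. Both genes that passed encode antagonists and moved in opposite directions. *Sfrp1*, a relative of *Sfrp2* named after its values were seen, had 114.5 and 370.2 CPM against 47.5 and 40.7 (edgeR adjusted p 0.375), and a single cell held 57.02% and 86.5% of the reads of the positive libraries. Without the scored cells the median of the list was 0.24.

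Genes described as shared by fibroblasts of many tissues, named here universal fibroblast genes, had a median of -0.93 over 24 tested, -0.67 in tumor 1 and -1.18 in tumor 2. *Tnxb* alone passed in edgeR, and at an unadjusted p of 0.05 2 were higher (*Pla1a* and *Hsd11b1*) and 14 lower, while DESeq2 called 2 higher and 7 lower. Limma called *Hsd11b1* higher and *Tnxb*, *Cd248* and *Gpx3* lower on thinned reads. *Cd248*, endosialin, a surface protein of perivascular and stromal cells, had 225.7 and 193.4 CPM against 427 and 451, and *Has1*, a hyaluronan synthase, had 0.326 and 0.524 against 66.5 and 16.2 (edgeR adjusted p 0.251 and 0.152). Both were named after their values were seen. The median was -0.62 without the scored cells, -0.59 with ERCC totals and -0.23 as a difference in mean log2(thinned reads + 1). *Mfap5*, a member that served in the score, is not in these counts.

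Contractile and myofibroblast genes had a median of -0.43 over 21 tested, with -0.04 in tumor 1 and -0.64 in tumor 2. None passed in edgeR (0 of 21), with 1 higher and 7 lower at an unadjusted p of 0.05, DESeq2 called 7 lower, and limma called 1 higher and 3 lower on thinned reads. *Acta2*, smooth muscle actin, had 738 and 599 CPM against 1149 and 2571. *Fn1*, fibronectin, had 2361 and 3402 against 3763 and 5353, and *Ctgf*, a matricellular protein, had 722 and 2368 against 1309 and 3693. *Postn*, periostin, went the other way, with 11823 and 13024 against 9951 and 8129. Their edgeR adjusted p were 0.488, 0.298, 0.306 and 0.572. *Tagln*, transgelin, named after its values were seen, had 251.01 and 330.97 against 422 and 982 (edgeR adjusted p 0.353). Cells with a V of at least 2 were more frequent among negative cells, and the median of the list was -0.42 without them and -0.43 without all scored cells. It was -0.10 with ERCC totals, and -0.11 as a difference in mean log2(thinned reads + 1).

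Structural matrix genes went both ways. Interstitial collagens had a median of 0.17 over 20 tested, with 0 past edgeR's threshold, 1 higher and 3 lower at an unadjusted p of 0.05, 2 called lower by DESeq2, and 1, *Col8a1*, called lower by limma. *Col3a1* had 21053 and 21293 CPM against 20154 and 12531, and *Col1a1* had 18163 and 13161 against 14329 and 10486. Proteoglycans and elastic fibre genes had a median of 0.20 over 32 tested, with 0 past edgeR's threshold, 5 higher and 5 lower at an unadjusted p of 0.05, 2 and 1 by DESeq2, and 3 and 2 by limma. Within them *Omd* and *Aspn*, members of the same family of leucine-rich proteoglycans, lay on opposite sides. *Aspn*, asporin, named after its values were seen, had 406 and 368.2 CPM against 693 and 644 and was lower by -1.49 on thinned reads (limma adjusted p 3.28e-07), or -1.25 without the scored cells (limma adjusted p 0.0873, and 0.00631 with the limit on D at 2).

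Basement membrane genes had a median of -0.07 over 18 tested, with 0 past edgeR's threshold, 3 higher and 1 lower at an unadjusted p of 0.05, and 3 called higher by DESeq2 and 4 by limma. One of them, *Col4a6*, a collagen IV chain named after its values were seen, had 908 reads in 4 and 9 positive cells and 2 reads in the negative cells, a ratio of 631 with a counting interval of 174.3 to 5221 (edgeR adjusted p 0.0641). Matrix metalloproteinases and their inhibitors had a median of 0.36 over 16 tested, with 0 past edgeR's threshold, 6 higher and 1 lower at an unadjusted p of 0.05 and 1 called higher by DESeq2. *Mmp2*, gelatinase A, had 4399.8 and 3855 CPM against 2898 and 2374. *Mmp3*, stromelysin, had 1194 and 2491 against 746 and 166.8, was read in 18 of 38 positive and 8 of 52 negative cells of tumor 2, and was the 1 member limma called. A single cell held 77.3% of the *Mmp3* reads of the positive and 86.1% of those of the negative library of tumor 2, and the log2 difference went from 2.29 to 1.04 without the scored cells. The median was 0.15 without the scored cells.

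Growth factor genes of the IGF and PDGF systems had a median of 0.17 over 22 tested, with 0 past edgeR's threshold, 4 higher and 3 lower at an unadjusted p of 0.05, 2 and 1 by DESeq2 and 4 called higher by limma. *Igfbp4*, an IGF-binding protein, had 3213 and 2729.7 CPM against 2266 and 1484. *Igfbp5*, named after its values were seen, had 1740.5 and 3061 against 1144 and 342.3. TGF-beta, activin and BMP genes had a median of -0.03 over 30 tested, with 0 past edgeR's threshold, 1 higher and 1 lower at an unadjusted p of 0.05, 0 and 2 by DESeq2 and 1 and 1 by limma.

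Of the genes tied to CD10 and GPR77 in human fibroblasts 13 were tested. Of these, 0 passed in edgeR or limma, 1 was higher and 2 lower at an unadjusted p of 0.05, DESeq2 called 1 higher, and the median was -0.05. *C5ar2*, which encodes GPR77, was below the filter. It was read in 4 of 38 Mme-positive cells of tumor 2 (10.5%, exact interval 2.94 to 24.8%), and in 0 of 33 positive cells of tumor 1 and 0 of 63 and 0 of 52 negative cells, which allows cells with a read up to the exact limits of 10.6, 5.69 and 6.85%. Chemokines and cytokines had a median of 0.04 over 22 tested, with 0 past edgeR's threshold, 3 higher and 2 lower at an unadjusted p of 0.05, 2 and 1 by DESeq2 and 2 called higher by limma. *Cxcl14*, a chemokine of stroma and epithelium, had 1098 and 964 CPM against 709 and 443. Complement genes had a median of -0.03 over 16 tested, with 0 past edgeR's threshold, 2 higher and 1 lower at an unadjusted p of 0.05, 1 called higher by DESeq2, and 1 and 1 by limma. *Clu*, clusterin, named after its values were seen, was read in 2 of 33 and 12 of 38 positive and in 4 cells of each negative group.

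Lipid genes had a median of 0.19 over 16 tested, with 0 past edgeR's threshold or limma's, 3 higher and 1 lower at an unadjusted p of 0.05 and 1 called higher by DESeq2. *Apoe*, the lipid carrier apolipoprotein E, had 189.5 and 133.8 CPM against 47.6 and 14.2 (edgeR adjusted p 0.169), with 67.6% of the positive reads of tumor 1 in a single cell. The classic CAF markers had a median of -0.30, or 0.04 with ERCC totals, over 12 tested, with 0 past edgeR's threshold, and 1 higher and 1 lower at an unadjusted p of 0.05, and as many by DESeq2. Limma called *Pdgfra* higher and *Acta2* lower on thinned reads. Immediate early and stress genes, which cell dissociation can induce, had a median of -0.08 over 25 tested, with 0 past edgeR's threshold or limma's, 1 higher and 4 lower at an unadjusted p of 0.05 and 1 and 1 by DESeq2. The 73 ribosomal protein genes and the 82 genes of oxidative phosphorylation had medians of 0.02 and 0.03. In edgeR 0 of both passed, 0 and 1 had an unadjusted p under 0.05, and DESeq2 and limma each called 0 and 1.

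Cell cycle genes stood lower, with a median of -2.73 over 22 tested, 0 past edgeR's threshold, 0 higher and 10 lower at an unadjusted p of 0.05, and 7 called lower by DESeq2 and 4 by limma. *Ccnb2*, cyclin B2, had 0.217 and 1.26 CPM against 57.9 and 61.9 with a read in 2 and 3 positive cells and 5 negative cells of each tumor. Without the scored cells, which include the 6 cycling ones, the median was 0.24. Those 6 cells were all Mme-negative and were chosen by cell cycle genes, so this change follows from leaving them out.

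**Figure D5:**
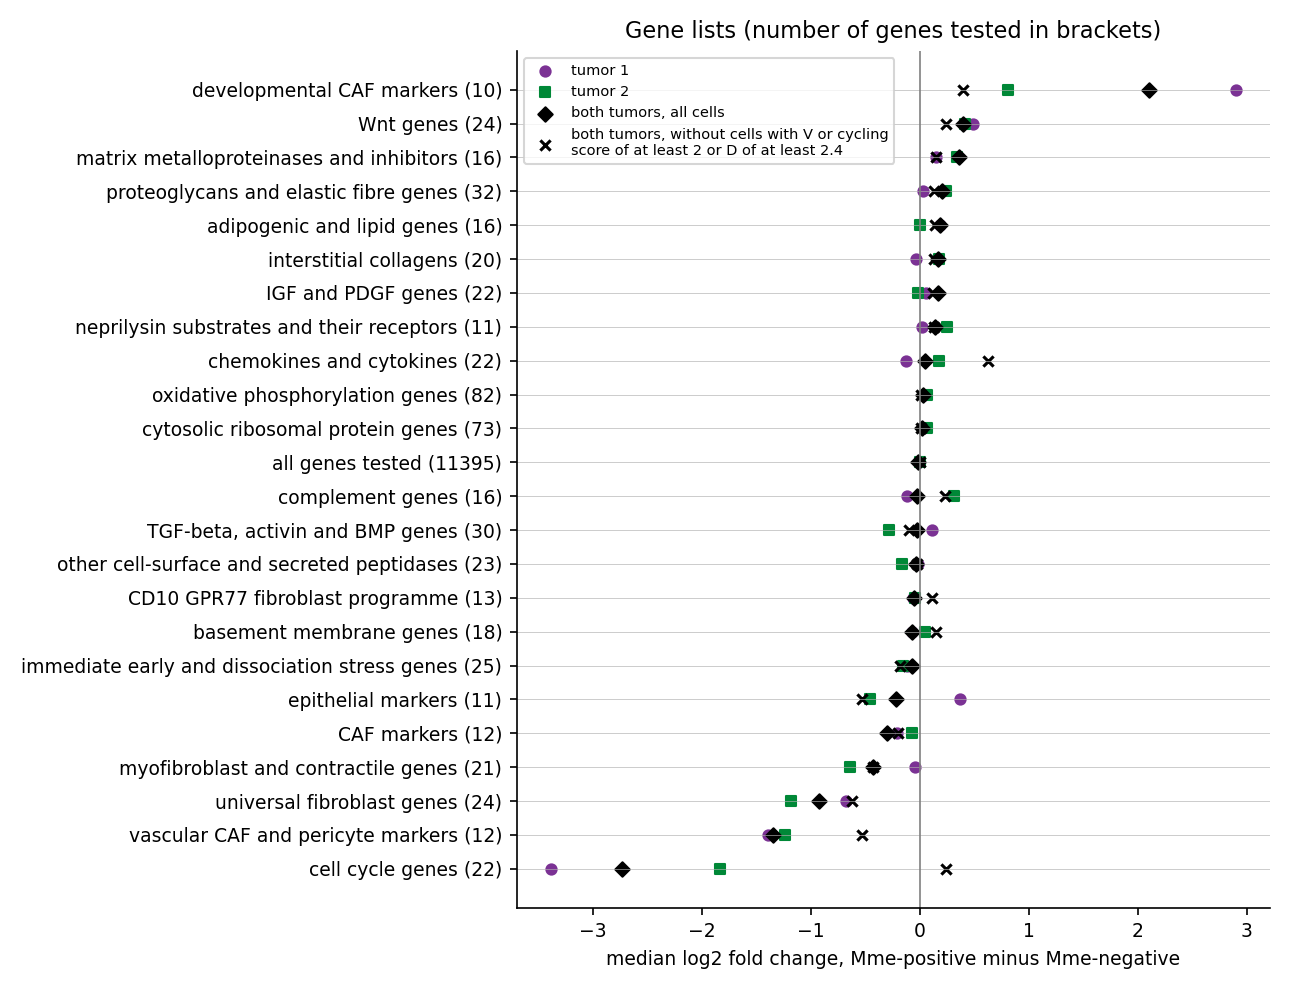
Median log2 fold change of each gene list with at least 10 tested genes (number tested in brackets), Mme-positive minus Mme-negative, in tumor 1 (circles), tumor 2 (squares), both tumors (diamonds) and both tumors without the scored cells (crosses). The universal fibroblast list lies at -0.93 and -0.62 without those cells. The cell cycle list goes from -2.73 to 0.24, which follows from leaving out cells chosen by cell cycle genes.

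Markers of other cell types were summed over whole lists for each cell. The 12 vascular CAF and pericyte markers that were not in the score were all read, and 0 passed in edgeR, with 0 higher and 7 lower at an unadjusted p of 0.05, 5 called lower by DESeq2 and 5 by limma, and a median of -1.35, or -0.53 without the scored cells. Their summed level had a mean of 294.1 and 262.3 RPKM in positive cells, with single cells from 43.3 to 1835 and from 52.6 to 902. In negative cells the mean was 555 and 473 RPKM, with single cells from 56.8 to 3566 and from 13.2 to 2109. *Notch3*, the mural Notch receptor, named after its values were seen, had 24.4 and 22.5 CPM against 104.5 and 62.8.

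Of 12 endothelial markers 10 were read, with *Cdh5* and *Tie1* at 0. Their mean summed level was 52.1 and 37.1 RPKM in positive cells, from 0 to 255.04 and from 0 to 190.3 RPKM, and 76.7 and 83.7 RPKM in negative cells, from 0 to 497 and from 0 to 558 RPKM. Of 5 tested, 0 passed in edgeR, 2 were lower at an unadjusted p of 0.05, DESeq2 called 2 lower, and limma called *Flt1* lower. *Flt1*, a VEGF receptor, had 1.41 and 12.7 CPM against 19.3 and 120.6 (edgeR adjusted p 0.0805). *Pecam1*, the gene of the sorted-against CD31, was read in 1 positive and 1 negative cell, both of tumor 2.

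The 12 developmental CAF markers were all read, with means of 542 and 450.2 RPKM in positive and 184.97 and 302.3 RPKM in negative cells. The medians were 136.9 and 227.9 RPKM in positive and 160.5 and 216.1 RPKM in negative cells. Single cells reached 7905 and 1721 RPKM in positive and 1093 and 1476 RPKM in negative cells. Of 10 tested, *Trf* rose, 5 were higher and 1 lower at an unadjusted p of 0.05, and the median went from 2.11 to 0.39 without the scored cells. Of 18 epithelial markers 17 were read, *Csn2* being at 0, with means of 342.8 and 335.3 RPKM in positive and 95.8 and 272.1 RPKM in negative cells, and single cells up to 5600 and 1700.0 RPKM and 1220.3 and 1986 RPKM. Their medians went the other way, at 19.7 and 113.4 RPKM in positive and 23.97 and 135.9 RPKM in negative cells. *Trf*, which is also in this list, was the 1 of 11 tested that passed. *Epcam* was read in 5 of 33 and 6 of 38 positive and in 3 of 63 and 8 of 52 negative cells.

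Of 11 myoepithelial markers, the cells for which CD10 is a marker, 9 were read, with *Dsc3* and *Dsg3* at 0. Their means were 453 and 186.1 RPKM in positive and 211.8 and 332.3 RPKM in negative cells, with single cells up to 5345 and 772 RPKM and 827 and 3867 RPKM. The medians were higher in positive cells of both tumors, at 220.02 and 171.3 RPKM against 143.2 and 144.3 RPKM. Of 6 tested, 0 passed in edgeR, 2 were higher at an unadjusted p of 0.05, DESeq2 called 2 higher, and limma called 1 lower, and the median had opposite signs in tumor 1 (4.77) and tumor 2 (-0.58). Over both tumors it went from 2.81 to 0.18 without the 3 cells with a D of at least 2.4 and to -0.04 without the scored cells, and 1 of those cells, of tumor 1, had 999 *Krt14* reads. Of 17 immune markers, 11 were read and *Ptprc*, which encodes CD45, and *Itgam* were among the 6 at 0. Their means were 72.1 and 16.6 RPKM in positive and 18.8 and 6.71 RPKM in negative cells, with single cells from 0 to 995 RPKM. The median cell was at 0 in each of the 4 groups. Of 7 tested, 0 passed in edgeR, DESeq2 or limma and 1 was higher at an unadjusted p of 0.05 in edgeR. The median log2 difference was 2.55 (1.68 in tumor 1 and 1.33 in tumor 2), with 6 of 7 above 0, and 2.297 without the scored cells. Of 8 adipocyte markers 2 were read and *Adipoq* and *Plin1* were at 0. What part such cells had in the values above was not tested, beyond the values given without the scored cells.

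The genes whose level was most like that of *Mme* over single cells were found by Spearman's rho with *Mme* RPKM within each tumor, over 96 and 90 cells that share a plate and differ in depth, among 8600 genes read in at least 20% of them. The first was *Efna5*, an ephrin ligand, with rho of 0.38 and 0.49, and 0.40 and 0.38 on thinned reads. Cells with a read were 19 of 33 and 30 of 38 positive and 21 of 63 and 17 of 52 negative cells. Next came *Senp6*, *Gpm6b*, *Col13a1*, *Fbln7*, *C1qtnf2*, *Vegfc*, *Lamc3*, *Rhod* and *Aplp2*, with means over the tumors from 0.36 down to 0.32. *Gpm6b*, a membrane proteolipid, had 373.97 and 407 CPM against 293.3 and 174.9, and *Fbln7*, a fibulin, had 239.1 and 153.4 against 133.5 and 58.5. *Vegfc*, a lymphatic growth factor, had 188.1 and 154.6 against 115.7 and 63.95. None of the 10 passed in edgeR (adjusted p 0.203 to 0.805), while DESeq2 called 4 higher (*Efna5*, *Col13a1*, *Fbln7* and *Lamc3*). On thinned reads limma called 6 higher, *Efna5*, *Gpm6b*, *Fbln7*, *C1qtnf2*, *Vegfc* and *Lamc3*. Of the 10, 0 passed there without the scored cells, or *Gpm6b* alone with the limit on D at 2. All 10 were chosen by their likeness to *Mme*, so these calls support nothing. At the other end stood *Cd248*, with a mean rho of -0.32.

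Other genes that divide the mCAF-like cells crossed the *Mme* groups as follows. *Cd34* was read in 6 of 33 positive and 19 of 63 negative cells of tumor 1 (18.2% and 30.2%) and in 16 of 38 and 15 of 52 of tumor 2 (42.1% and 28.8%), so the order of the shares differed between the tumors. *Mmp13*, collagenase 3, was read in 12 of 33 and 25 of 63, and in 12 of 38 and 15 of 52. *S100a4*, the gene of FSP-1, was read in 16 of 33 and 38 of 63 cells of tumor 1 (48.5% and 60.3%) but 31 of 38 and 32 of 52 of tumor 2 (81.6% and 61.5%). *Tnc*, tenascin C, was read in 16 of 33 and 38 of 63, and in 27 of 38 and 39 of 52. In each case the exact intervals of positive and negative cells overlapped within the tumor.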

How the data were processed

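The authors aligned the single-end reads with STAR to mm10 and assigned them to RefSeq gene models. The deposited counts are whole, unnormalized reads of 24490 genes and 92 ERCC spike-ins in 768 wells. RPKM as deposited scales these reads to gene length and library size. Every column was matched to its plate by name.

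The members and gene lists were chosen with earlier results of these data known, so no list is independent evidence. Counts were summed per tumor and Mme status, which are pairs from the same animal (deviations correlated by 0.084). Genes averaging 1 RPKM or more were tested with edgeR 4.0.16 (TMM, quasi-likelihood, tumor as a block), 11395 beside the genes of the rule. In every fit the adjustment for multiple tests included *Mme* and the fitted genes of the rule. Alternatives used DESeq2 1.42.0 and limma 3.58.1 (R 4.3.3) and the cells and settings named in the closing section. For thinning, each cell was drawn down to 40000 reads, which left out 7 mCAF-like cells. Intervals for shares are exact binomial (scipy 1.17.1) and a group at 0 is compared at a floor of 3 counts over the group. Tested on simulated data of 11403 genes for this comparison, edgeR called 16 of 100 genes changed by 1 on the log2 scale, 70 of 100 changed by 2, and 8 of 11203 unchanged ones. These false calls outnumber the genes edgeR called in the data. The simulation gave both tumors the same mean and followed the dispersion trend. It held no single cell with most of a gene's reads, so it does not show how edgeR does on such genes.

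Named genes are up to 12 per direction that meet the conditions in the report on share of cells, single cells and sign, ordered by size where past the threshold and otherwise by p, with *Mme*, the genes of the rule, *Pdgfra*, list members past the test or otherwise the up to 4 most abundant, and the 10 most like *Mme*. A gene this rule names is not reported here. Genes outside this are marked as named after their values were seen. Of 11408 symbols, 11371 matched RefSeq. Paralogs and overlapping genes may share reads, and read strand is not given in the sources used here. Doublets had been gated out in the sort by the authors, and no doublet caller was run.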

Additional observations from a re-analysis of the deposited data

Results flagged for a closer look

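*Mme* was also read outside the compared classes. Among the few cells that were neither mCAF-like nor vCAF-like, it was read in 28.6% in tumor 1 (4 of 14) and in 52.4% in tumor 2 (11 of 21), with exact intervals of 8.39 to 58.1% and 29.8 to 74.3%. These cells entered no comparison, and the counts exceed the floor of 3, in tumor 1 by a single cell. On thinned reads the shares were 25.0% (3 of 12, at the floor) and 47.4% (9 of 19).

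The median log2 fold change of 10 lists had opposite signs in the tumors, several of them near 0. Myoepithelial markers were at 4.77 in tumor 1 and -0.58 in tumor 2, and epithelial markers at 0.37 and -0.46. Over both tumors the myoepithelial median of 2.81 was 0.18 without the 3 cells with a D of at least 2.4. Complement genes were at -0.12 and 0.32, chemokines and cytokines at -0.13 and 0.17, and TGF-beta, activin and BMP genes at 0.11 and -0.28. M13 metallopeptidases were at -0.21 and 0.12, interstitial collagens at -0.040 and 0.18, and basement membrane genes at -0.072 and 0.048. Adipogenic and lipid genes were at 0.18 and -0.0029, and IGF and PDGF genes at 0.054 and -0.013. With 1 tumor on each side, these differences were not tested.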

How the results depend on the processing

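The shares of Mme-positive cells stayed within their intervals in every alternative run for them, from 30.2 to 42.5% in tumor 1 and from 36.7 to 52.1% in tumor 2, highest without the scored cells. The numbers of genes called did not, and are given as percent of genes tested, higher and then lower, against 0.0263% and 0.0176%. The fit with no replicate block (unpaired) called 0.00878% and 0.0176%, DESeq2 0.799% and 1.09%, DESeq2 size factors 0.0351% and 0.0263%, and ERCC totals 0.00878% and 0%. Without a filter on genes it was 0.0648% and 0.0907%, at a mean RPKM of at least 10 0.241% and 0.259%, with each cell scaled to the same total 0.132% and 0.114%, and with cells of at least 100000 reads 0.0789% and 0.0789%. Thinning before Mme status was set gave 0.167% and 0.229%, and with the status kept 0.273% and 0.440%. Setting Mme-positive from 5 reads gave 0.0176% and 0% (unadjusted 3.02% and 3.65%), an M of at least 5 0.0793% and 0.0441%, leaving out cells with an *Epcam*, *Ptprc* or *Pecam1* read 0.0440% and 0.0352%, and an adjusted p of 0.001 0% and 0%. Without cells with a V of at least 2, without those with a D of at least 2.4, and without both and cycling cells, 0% and 0% were called in edgeR, with 3.07% and 2.76%, 2.76% and 3.62%, and 2.80% and 2.63% at an unadjusted p of 0.05. With the limit on D at 2, leaving out high D alone gave 0.0265% and 0.0883%, leaving out all scored cells 0% and 0% (unadjusted 2.75% and 2.70%), and limma on thinned reads without them 0.186% and 0.106%. Without the highest cell of each gene it was 0.00883% and 0% (unadjusted 3.05% and 3.70%). Limma called 1.54% and 0.193% on log2(RPKM + 1) and 1.90% and 0.167% on log2(RPKM + 0.1), with medians of all genes at 0.16 and 0.30, 0.696% and 0.414% on thinned reads, and 0.0177% and 0.0265% on thinned reads without the scored cells. The settings on thinning with status kept, on V, D and cycling cells, on the highest cell and on thinned log values were chosen after seeing the data. The cause of these differences was not tested.

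Of 1732 values of the 67 genes whose CPM or log2 difference the report gives or that belong to the *Mme* family, score genes aside, 1709 kept their direction under the alternatives. Other list members that the naming rule takes in were not in this count. *Ctgf* was at 0.11 with limma on log2(RPKM + 0.1), and *Gpx3* at 0.16 with ERCC totals and at 0.036 without the scored cells (0.065 with the limit on D at 2). With 1 tumor left out no spread remains, so those values carry no test and no count. Immune markers had no median at a mean RPKM of at least 10. *Ece1*, at -0.03, turned to 0.31 with ERCC totals, 0.0060 with Mme-positive from 5 reads, 0.025 and 0.0039 with the limit on D at 2.4 and 2, and 0.12 and 0.32 with limma on log2(RPKM + 1) and log2(RPKM + 0.1), and lay at -0.074 and 0.016 in the single tumors. *Ece2*, at -0.06, turned to 0.27 with ERCC totals, 0.26 with equal cell totals, 0.20 and 0.28 on reads thinned before and after status, 0.0084 with the limit on D at 2, 0.11 without the highest cell, 0.57 and 0.88 with limma on both RPKM scales, and 0.18 on thinned reads, 0.11 and 0.14 there without the scored cells, and lay at -0.34 and 0.22 in the single tumors.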
